A study of Mus musculus with 8 samples.

Results

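Smad2, Smad3, Smad4, Smad7, Ski, Skil, Tgm2, Tgfbi and Ctgf (Ccn2 in the current nomenclature) carry the TGF-beta signal to the nucleus, restrain it there or are transcribed in answer to it. They are 9 of the 12148 genes measured by RNA-Seq in 8 libraries of dental pulp from the first molars (M1s) of C57BL/6J mice at postnatal day 7 (P7), and all 9 were found in the table by their symbols. The genes were chosen by name for their roles, at a time when their genotype differences in these libraries were already known, so the values of the 9 genes in the 2 genotypes are given as a description. The calls and intervals of the fit over all genes are printed for them as values of that fit and test nothing about the choice. The 4 control libraries came from Osterix-Cre mice, which carry Cre recombinase driven by the Osterix promoter. The 4 mutant libraries came from Tgfbr2cko mice, which carry the same recombinase and in addition a Tgfbr2 gene flanked by loxP sites. The promoter directs Cre to the mesenchyme that forms osteoblasts and odontoblasts, so that vessels, blood cells, nerve and epithelium in the same tissue are outside the intended deletion. Pulp was dissected free of enamel organ and hard tissue, with left and right M1s pooled in a single lysate. The labels do not say whether the libraries of a genotype are separate animals, and the spread between them may therefore be partly technical. The sample titles carry a number that the labels do not explain and that repeats within each genotype. If it marks an animal, the 4 libraries of a genotype stand for fewer than 4 animals.

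TGF-beta binds the type II receptor encoded by Tgfbr2, which recruits and activates a type I receptor kinase. That kinase phosphorylates the receptor-regulated SMADs, SMAD2 and SMAD3, which join the common partner SMAD4 and act on transcription in the nucleus. SMAD7, SKI and SKIL (SnoN) oppose the signal, and transcription of Smad7 and Skil is itself raised by TGF-beta, which makes them feedback genes. Tgm2, Tgfbi and Ctgf encode proteins of the extracellular space or its assembly whose transcription TGF-beta raises in many mesenchymal cells, and in teeth the pathway is known for its part in odontoblast differentiation and dentin formation.

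Values are log2 CPM as deposited, where CPM is a gene's reads scaled to the total of its library. Between 9511517 and 10227345 reads per library fell on the 12148 genes in the controls, and between 8682872 and 13539670 in the mutants. The submitters' library numbers serve as names, from 49 to 52 in the Osterix-Cre group and from 53 to 56 in the Tgfbr2cko group. Library 56 stood apart. Amelx, Ambn and Enam are enamel matrix genes best known from ameloblasts. Their transcripts took 19.2% of the reads of library 56 against 0.334% to 2.87% in the other libraries. Values without library 56 are given below for those of the 9 genes that it moves most and for the sums of the marker lists. It had the highest or lowest sum in most marker lists, and each r with a marker list or with Tgfbr2 includes it. The deleted gene, Tgfbr2, had log2 values of 7.16, 7.62, 7.64 and 7.52 in the controls and of 7.02, 7.00, 7.16 and 7.61 in the mutants, a log2 difference of -0.29 (SE 0.17; limma-trend, adjusted p = 0.79) and of -0.42 without library 56. The library labelled Tgfbr2cko 56 lay inside the control range of Tgfbr2, and mutant 55 equalled control 49 at 7.16, so the Tgfbr2 messenger level does not by itself separate the genotypes. These values count reads over the whole gene and do not measure the extent of the deletion. Of the pulp mesenchyme markers Vim, Pdgfra, Msx1, Runx2 and Sp7, all 5 were measured and none was at 0 in any library.

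The order of the 9 genes by level was the same in outline in both genotypes and spanned a wide range. On the scale of CPM per kilobase of joined exons, Tgfbi was the highest, with a mean of 141 in Osterix-Cre and 110 in Tgfbr2cko. Ski followed at 21.4 and 17.5, Smad3 at 16.2 and 16.6, Ccn2 at 17.2 and 13.7, and Smad4 at 11.5 and 13.8. Smad7 stood at 6.46 and 7.42, Skil at 5.94 and 3.62, Smad2 at 3.27 and 3.95, and Tgm2 at 3.6 and 1.58. Tgfbi was the only one of the 9 whose range over the 8 libraries did not touch that of the next in the order. Each other pair of neighbours overlapped, and their order is not resolved at this spread. Among the 12144 genes with a known exon length, Tgfbi lay at percentile 97.0, Smad3 at 74.7, Smad2 at 32.6 and Tgm2 at 21.9. Smad3 transcripts were more abundant per length than Smad2 transcripts in each of the 8 libraries, and the log2 ratio of Smad2 to Smad3 had a control mean of -2.31 ± 0.33 (SD, n = 4) and a mutant mean of -2.07 ± 0.38 (SD, n = 4).

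**Figure D1:**
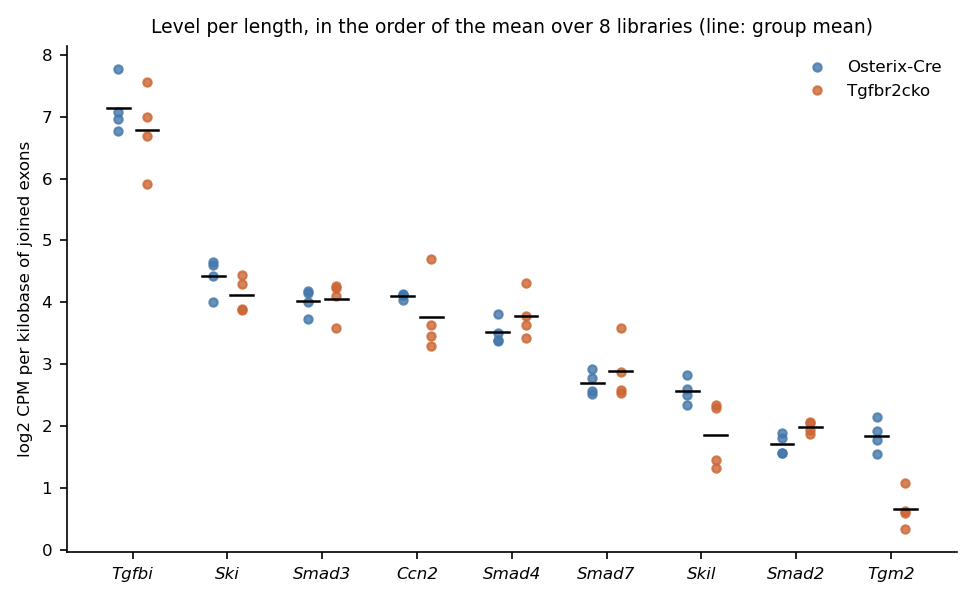
Each point is 1 library, with the log2 CPM per kilobase of joined exons on the vertical axis and the 9 genes on the horizontal axis in the order of their mean over the 8 libraries; black lines are genotype means. Tgfbi sits alone at the top, with a mean of 141 CPM per kilobase in the controls, and Tgm2, at 3.6 against 1.58, has the widest gap between the genotypes.

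Across the 9 genes, the mutants differed from the controls mainly in 2 of them, Tgm2 and Skil, both lower. A gene is called altered here at an unadjusted limma p under 0.05 with a change of at least 1.5-fold, and 2 of the 9 were altered, against 701 of all 12148 genes (5.77%). Both were lower in Tgfbr2cko, as were 443 of all genes (3.65%), and none of the 9 was altered upwards, against 258 of all genes (2.12%). By adjusted p under 0.05, 1 of the 9 was called, Tgm2, beside 0.947% of all genes, and in Tgm2 and Skil the values of the 2 genotypes did not overlap, as in 5.27% of all genes. Because the 9 were chosen with these differences known, nothing is read from the shares. The mean was lower in the mutants in 5 of the 9 and higher in 4, with a median log2 difference of -0.29 beside -0.01 over all genes, where the median size of a difference was 0.14. In bulk tissue, fewer cells of a type and less RNA per cell cannot be told apart, and this holds for every difference given here.

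Neither receptor-regulated SMAD gene was altered. Smad2 (chromosome 18, 76241580 to 76310963, GRCm38) had log2 values of 4.70, 4.94, 5.02 and 4.71 in Osterix-Cre and of 5.21, 5.01, 5.07 and 5.18 in Tgfbr2cko. Only mutant library 54 reached into the control range, at its upper end, and the log2 difference was 0.27 (SE 0.15; 95% interval -0.05 to 0.60). Over the 8 libraries r of Smad2 was -0.94 with the summed level of the bone markers Ibsp and Bglap, which was 1887 to 3668 CPM in the controls and 1314 to 2006 CPM in the mutants (1629 to 2006 CPM without library 56), with both altered, 1 higher and 1 lower, and none at 0. The log2 differences of these 2 markers were -0.72 and 1.24, so their sum is not read as a level of bone cells. This r was the largest in size that Smad2 had with any marker list. The part of these markers in the Smad2 values was not tested. Smad3 (chromosome 9, 63646767 to 63757994) had log2 values of 6.47, 6.62, 6.20 and 6.66 in the controls and of 6.58, 6.74, 6.71 and 6.06 in the mutants. Its lowest value was that of mutant library 56, the other three mutants lay in the upper part of the control range or just above it, and the log2 difference was 0.03 (SE 0.18; 95% interval -0.35 to 0.41). Without library 56 the Smad3 difference was 0.19, and it turned below 0 when control 51, mutant 54 or mutant 55 was left out, the lowest being -0.06.

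Smad4, which encodes the partner shared by the TGF-beta and BMP branches, had log2 values of 5.71, 5.40, 5.28 and 5.27 in the controls and of 6.20, 5.68, 5.31 and 5.53 in the mutants (chromosome 18, 73639009 to 73703780). Mutant 53 was the only library above all controls, and the log2 difference was 0.27 (SE 0.20; 95% interval -0.16 to 0.69), which was 0.09 without that library. The inhibitory Smad7 (chromosome 18, 75367529 to 75395935) behaved alike, with log2 values of 5.10, 4.95, 4.74 and 4.69 in the controls and of 5.76, 5.05, 4.76 and 4.71 in the mutants. Again only mutant 53 exceeded the control range, the log2 difference was 0.20 (SE 0.22; 95% interval -0.28 to 0.69), and without that library it was -0.03 (0.32 without library 56). Over the 8 libraries r with the summed level of the enamel organ genes Klk4, Amtn, Odam and Mmp20, which was lowest in mutant 53 at 306 CPM, was -0.83 for Smad7 and -0.71 for Smad4. With the enamel matrix sum r was -0.33 for Smad7 and -0.08 for Smad4, and with the epithelial sum -0.46 and -0.21. The part of these markers in the Smad7 and Smad4 values was not tested. The ratio of Smad7 to Smad4 per length was nearly level across the libraries, averaging 0.562 in Osterix-Cre and 0.537 in Tgfbr2cko.

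**Figure D2:**
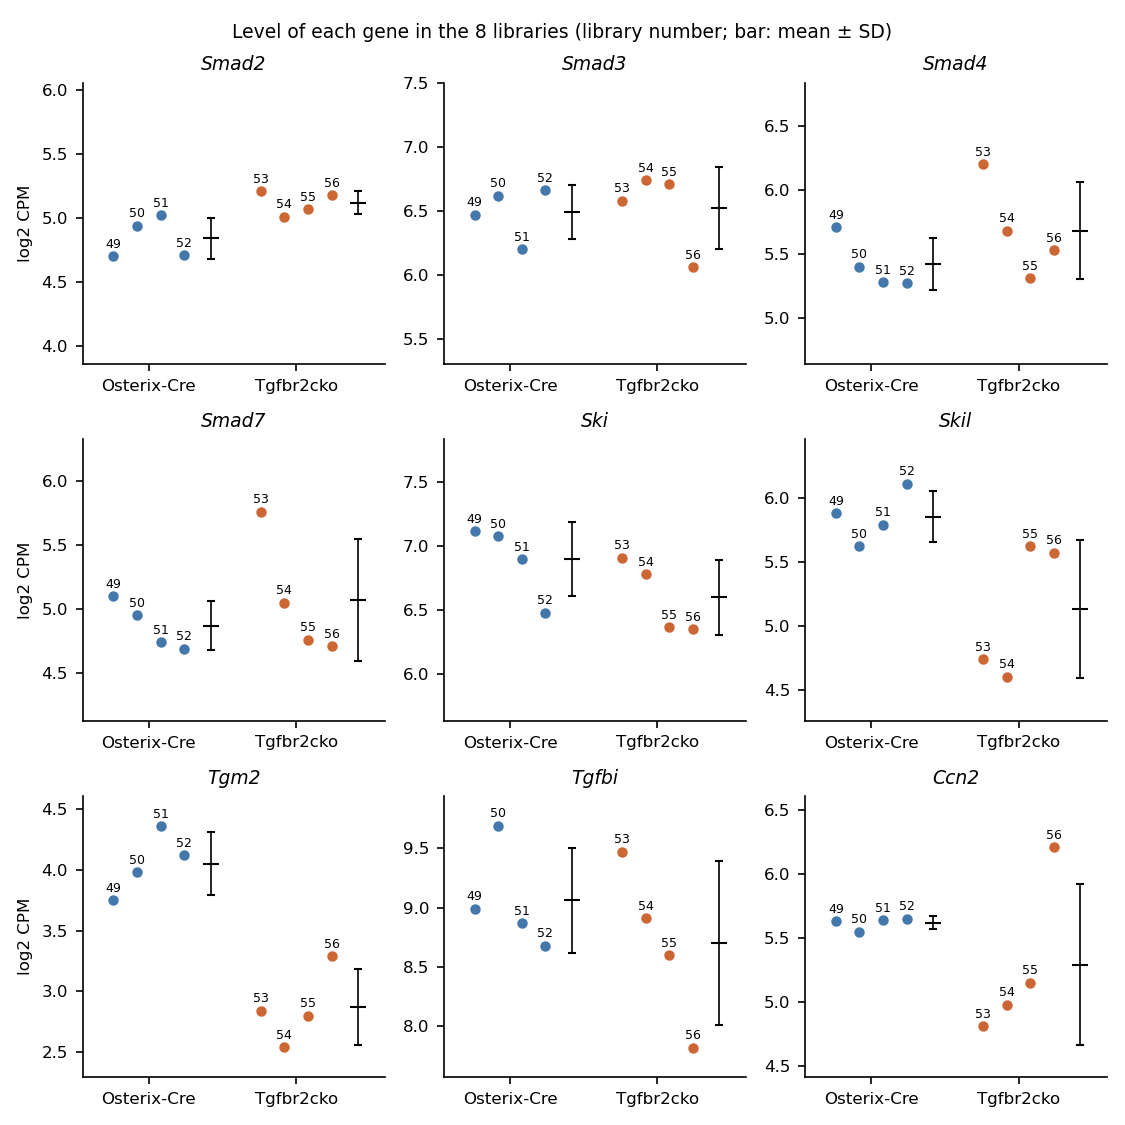
Each panel shows 1 gene, with log2 CPM on the vertical axis in the same span per panel unless the values need more, the library number beside each point, and the mean ± SD of the 4 libraries as a bar. In Tgm2 and Skil all mutant points lie below all control points, while in Ccn2 library 56, at 6.21, lies above the controls and the other mutants below them.

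Of the corepressor genes, Skil was altered and Ski was not, and the difference between the 2 was not tested. SKI and SKIL bind SMAD complexes at DNA and recruit repressors, and SKIL is removed and then resynthesized when the signal starts. Ski (chromosome 4, 155154075 to 155222592) had log2 values of 7.12, 7.08, 6.90 and 6.48 in the controls and of 6.91, 6.78, 6.37 and 6.35 in the mutants. Mutants 55 and 56 lay just below the lowest control, the other two inside the control range, and the log2 difference was -0.29 (SE 0.18; 95% interval -0.69 to 0.10). Skil (chromosome 3, 31095058 to 31122577) had log2 values of 5.88, 5.62, 5.79 and 6.11 in the controls and of 4.74, 4.60, 5.62 and 5.57 in the mutants. The mutants fell into a low pair, 53 and 54, at 26.8 and 24.3 CPM, and a pair, 55 and 56, at 49.2 and 47.4 CPM, beside 49.2 CPM in the lowest control, so that the genotypes are parted by less than the rounding of these values. The log2 difference of Skil was -0.71 (SE 0.23; 95% interval -1.22 to -0.21), which is 0.609 of the control level, and -0.86 without library 56. It was altered in 6 of the 8 fits that left out 1 library, and not without mutant 53 (-0.58) or without mutant 54 (-0.54). The same 4 enamel organ genes summed to 622 to 1340 CPM in the controls and to 306 to 1277 CPM in the mutants (306 to 804 CPM without library 56), with 1 of 4 altered, lower, and none at 0, and r of Skil with this sum was 0.83 over the 8 libraries. The enamel matrix genes had higher means in the mutants, with log2 differences from 1.39 to 1.63 and none of 3 altered. Their sum was 3343 to 22081 CPM in the controls and 3555 to 191955 CPM in the mutants, with the top value in library 56. Without library 56 the mutants had 3555 to 28661 CPM, close to the controls. With the enamel matrix sum r of Skil was 0.26, and with that of the epithelial markers 0.12. The part of these markers in the Skil difference was not tested. Within a library, the log2 ratio of Skil to Ski per length ran from -2.26 to -1.17 in the controls and from -2.98 to -1.55 in the mutants, and these ranges overlap.

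Tgm2 showed the widest separation of the 9. It encodes transglutaminase 2, an enzyme that cross-links proteins of the extracellular matrix. Tgm2 (chromosome 2, 158116402 to 158146436) had log2 values of 3.75, 3.98, 4.36 and 4.12 in Osterix-Cre and of 2.84, 2.54, 2.80 and 3.29 in Tgfbr2cko. Every mutant lay below every control, and the nearest to the controls was library 56. The log2 difference was -1.18 (SE 0.23; 95% interval -1.67 to -0.70), which is 0.44 of the control level, and -1.32 without library 56. The gene rests on few reads, 131 to 195 in the controls and 60 to 132 in the mutants. It was altered in all 8 fits that left out 1 library, with differences from -1.32 to -1.07. Of its joined exons, 8.03% overlap exons of Rprd1b and 13.7% those of Gm20412, both on the opposite strand, and the strand setting of the counting is not given in the sources used here.

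Tgm2 is also known to be expressed by endothelium and mural cells, and the mural cell markers were lower in sum in the mutants. The summed level of the mural cell markers Rgs5, Pdgfrb, Notch3 and Cspg4 was 383 to 512 CPM in the controls and 242 to 368 CPM in the mutants, without overlap, and from 287 to 368 CPM in the mutants without library 56. All 4 were measured, 2 of the 4 were altered, both lower, and none was at 0, while the log2 differences of the 4 ran from -0.83 to 0.26. The log2 difference of the mural sum was -0.51, beside -1.18 for Tgm2. The endothelial markers Pecam1, Cdh5, Kdr, Tek and Emcn summed to 211 to 291 CPM in the controls and to 174 to 227 CPM in the mutants (177 to 227 CPM without library 56), ranges that overlap, with 1 of 5 altered, lower, and none at 0. Over the 8 libraries Pearson's r of Tgm2 was 0.68 with the mural sum, 0.65 with the endothelial sum and 0.79 with Tgfbr2, values that share their libraries and include the difference between the genotypes. The part of vessel cells in the Tgm2 difference was not tested.

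Tgfbi, the gene of a secreted matrix protein named for its induction by TGF-beta, was the most abundant of the 9 and varied most among the controls. Of the 9 genes, 3 have a promoter window in the RefSeq table used here, Smad3, Ski and Tgfbi. Over the 250 bases before the RefSeq start, on either strand, CAGAC (the extended SMAD-binding element) was found 0 times in Smad3, 0 times in Ski and 2 times in Tgfbi, GGCGC (a GC-rich SMAD motif) 0, 7 and 3 times, and the palindrome GTCTAGAC in none. The Tgfbi window is shown because it alone of the 3 holds both short motifs. It is chr13:56609336-56609522 on the plus strand of GRCm38.p6, the 187 bases before the GENCODE start of the gene, which lies at 56609523 to 56639562 on chromosome 13. Capitals mark CAGAC or GGCGC on either strand, and the last GGCGC overlaps its reverse complement.
Tgfbi: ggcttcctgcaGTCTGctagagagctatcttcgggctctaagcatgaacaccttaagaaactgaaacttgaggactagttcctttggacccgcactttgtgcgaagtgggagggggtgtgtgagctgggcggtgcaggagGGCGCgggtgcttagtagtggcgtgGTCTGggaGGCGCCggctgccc
Of all 32851 windows of this length, 34.2% hold CAGAC and 23.9% hold GGCGC, so neither motif is rare, and a match describes the letters only.

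The Tgfbi transcript had log2 values of 8.99, 9.69, 8.87 and 8.68 in the controls and of 9.47, 8.91, 8.60 and 7.82 in the mutants. Mutant 56 was the lowest of all, mutant 55 lay just below the controls, and the other two lay within their range. The log2 difference was -0.36 (SE 0.31; 95% interval -1.02 to 0.31), and it was -0.15 without control 50, -0.06 without library 56 and -0.04 with the enamel matrix level in the model. Without mutant 53 it was -0.61, and Tgfbi was altered in that fit alone of the 8. Markers of macrophages and other blood cells (Ptprc, Csf1r, Cd68, C1qa and Adgre1) summed to 425 to 577 CPM in the controls and to 245 to 526 CPM in the mutants (414 to 526 CPM without library 56), with 2 of 5 altered, both lower, and none at 0. Over the 8 libraries, r of Tgfbi was 0.87 with this sum, -0.80 with the enamel matrix sum and -0.88 with the sum of the epithelial markers Krt5, Krt14, Epcam and Cdh1. The epithelial sum was 228 to 357 CPM in the controls and 233 to 2720 CPM in the mutants (233 to 881 CPM without library 56), with 1 of 4 altered, higher, and none at 0. Their part in the Tgfbi values was not tested.

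Ctgf, written Ccn2 in the annotation, encodes a secreted matricellular protein. Ccn2 (chromosome 10, 24595442 to 24598683) was the most even of the 9 in the controls, with log2 values of 5.63, 5.55, 5.64 and 5.65, and one of the most uneven in the mutants, with 4.81, 4.98, 5.15 and 6.21. Mutants 53, 54 and 55 lay below all controls, and mutant 56 lay above them. The log2 difference over all 8 libraries was -0.33 (SE 0.25; 95% interval -0.87 to 0.22). Without library 56 it was -0.64 and with the enamel matrix level in the model -0.59, and in both fits Ccn2 was altered. Without mutant 53 it was -0.17, so the size of the Ccn2 difference moves with either of these 2 libraries. Over the 8 libraries r of Ccn2 was 0.80 with Tgfbr2, which in library 56 was likewise higher than in the other mutants, and 0.83 with the summed level of the other enamel organ genes. It was 0.77 with the 5 red cell genes, of which 0 were altered and none was at 0, and which summed to 655 to 1496 CPM in the controls and to 565 to 2541 CPM in the mutants (565 to 694 CPM without library 56). It was -0.77 with the 5 pulp mesenchyme markers, of which 0 were altered, and which summed to 3138 to 3764 CPM in the controls and to 2112 to 4049 CPM in the mutants (3520 to 4049 CPM without library 56). Their part in the Ccn2 values was not tested. Of the Ccn2 exons, 23.2% overlap Gm15270 on the opposite strand.

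**Figure D3:**
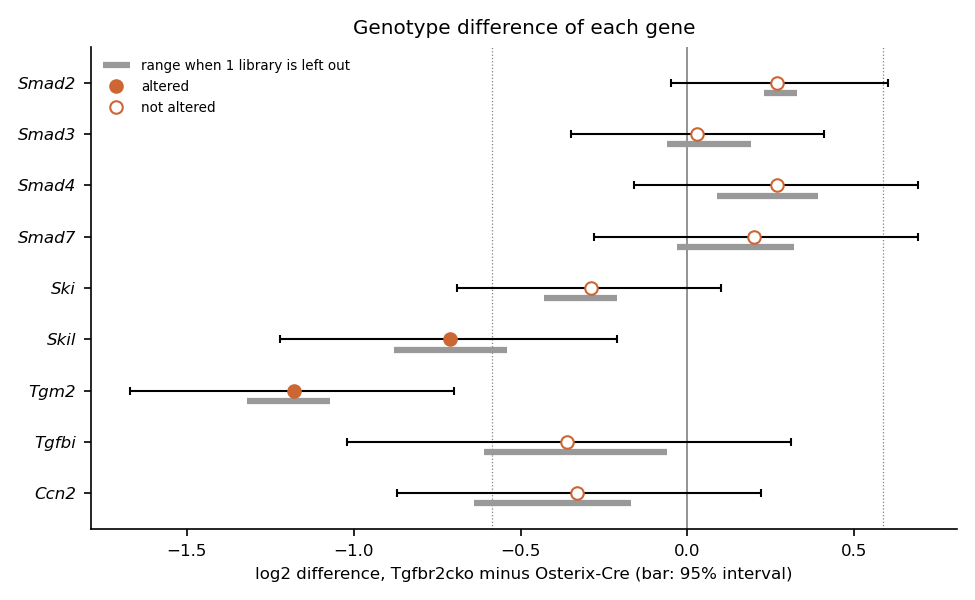
Points are log2 differences, Tgfbr2cko minus Osterix-Cre, with the 95% interval as a black bar; grey bars span the differences when 1 library is left out, filled points are altered genes and dotted lines mark a 1.5-fold change. Tgm2 (-1.18) stays beyond the dotted line throughout, Skil (-0.71) crosses it when 1 library is left out, and the 4 SMAD genes lie between 0.03 and 0.27.

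Of the 36 pairs, 3 had a Pearson's r over the 8 libraries above 0.7 and 2 had one below -0.7, and the median r was -0.15. Smad4 and Smad7 were the most alike (r = 0.95, Spearman's rho = 0.86), also after each genotype was centred on its mean (r = 0.95). Without mutant 53, where both were highest, r was 0.80. Ski and Tgfbi had r = 0.80 (rho = 0.90), and 0.78 after centring. Skil and Tgm2 had r = 0.79 (rho = 0.81), which was 0.49 after centring, 0.03 among the 4 controls and 0.67 among the 4 mutants, and the value over all 8 includes the genotype difference known when they were chosen. The opposed pairs were Smad3 with Ccn2 (r = -0.74), at -0.78 after centring and -0.48 without library 56, and Smad4 with Skil (r = -0.72), at -0.63 after centring and -0.54 without mutant 53. After centring, the most opposed pairs were Ski with Skil (r = -0.83, against -0.14 over the log2 values) and Tgfbi with Ccn2 (r = -0.83, against -0.59). Without library 56, r of Ccn2 was 0.92 with Tgm2, against 0.60 over all 8, and 0.90 with Skil, against 0.70. These values are descriptions over 8 libraries that share their totals, and the pairs were named after their values were seen, as extremes on the log2 values, after centring or without library 56.

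**Figure D4:**
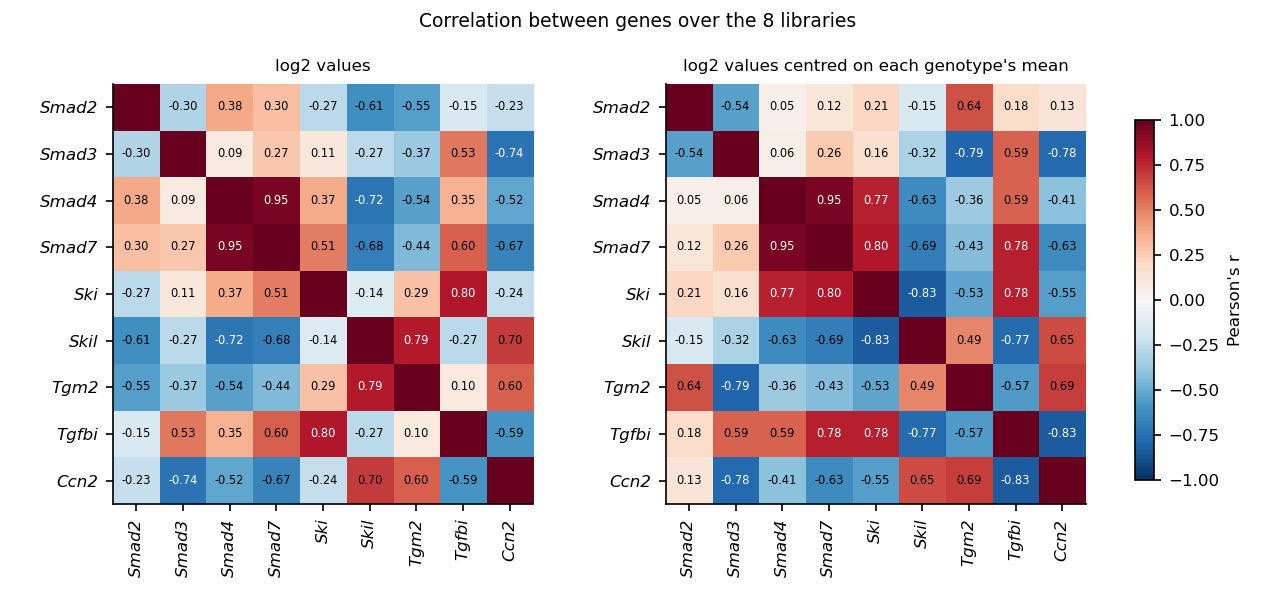
Cells give Pearson's r between 2 genes over the 8 libraries, on the log2 values at left and on values centred on each genotype's mean at right, with red for positive and blue for negative r. Smad4 and Smad7 keep r = 0.95 in both panels, while Skil and Tgm2 go from 0.79 to 0.49.

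Among all other genes, the 2 with the highest r to each of the 9 over the 8 libraries were taken as its nearest in pattern. For Tgm2 they were Lrg1 (r = 0.98), a secreted glycoprotein gene, and Cd248 (r = 0.97), the gene of endosialin, a surface protein of pericytes and fibroblasts. These had log2 differences of -1.79 and -1.28. For Skil they were Gramd2 (r = 0.91) and Masp1 (r = 0.91), the gene of a complement-activating protease, with log2 differences of -0.96 and -1.34. The nearest to Ccn2 were Stac (r = 0.97) and Clip2 (r = 0.96), and to Tgfbi Hnrnpk (r = 0.99), which encodes an RNA-binding protein, and Ust (r = 0.98), which encodes a sulfotransferase. For the other five the pairs were Fam117a and Epha7 for Smad2, Cep83os and Atp2b3 for Smad3, Clptm1l and Med6 for Smad4, Ptpra and Lifr for Smad7, and Gnl2 and Sap18 for Ski, with r from 0.95 to 0.98. With 8 libraries and all other genes to choose from, high values of r were found for each of the 9.

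In 4 lists of other pathway genes, 50 of 56 were measured, and 3 were altered, 1 higher and 2 lower, beside 5.77% of all genes altered, 2.12% higher and 3.65% lower. The median log2 difference was -0.05 over the 50 and -0.01 over all genes. No listed gene had an adjusted p under 0.05 by limma, and 4 had an unadjusted p under 0.05. The genotypes did not overlap in 4 of the 50, beside 5.27% of all genes. The other SMAD genes, Smad1, Smad5 and Smad9 of the BMP branch and the inhibitory Smad6, had log2 differences between -0.21 and 0.00, and 0 of 4 were altered, a list too short to set against the 5.77% of all genes. The smallest p among them was that of Smad9 (limma, adjusted p = 0.964).

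Among 16 regulators of SMADs and receptors, 1 was altered (5.77% of all genes were), namely Bambi, which encodes a decoy receptor that dampens TGF-beta and BMP signalling. Bambi had log2 values of 9.30, 9.25, 9.66 and 9.39 in Osterix-Cre and of 9.80, 10.34, 9.95 and 10.05 in Tgfbr2cko. Every mutant lay above every control, with a log2 difference of 0.64 (SE 0.18; limma, adjusted p = 0.145) and the same difference without library 56. It was altered in 7 of the 8 fits that left out 1 library. Tgif1, a SMAD corepressor, lay lower in every mutant, at 5.70, 5.53, 5.30 and 5.57 beside 5.95, 6.08, 6.07 and 5.77, but its log2 difference of -0.44 (SE 0.15; limma, adjusted p = 0.262) is below 1.5-fold. It was named after its values were seen. The log2 difference of Pmepa1, a feedback gene that sequesters SMADs, was 0.26 (limma, adjusted p = 0.841), and it too was named after its values were seen. Of 10 transcription partners of SMADs measured, 0 were altered, and the smallest p was that of the coactivator gene Ep300, with a log2 difference of 0.24 (limma, adjusted p = 0.825). Foxh1 and Atf3 were not analysed.

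Of 24 further genes known to be induced by TGF-beta, 20 were measured, and 2 were altered, both lower, beside 3.65% of all genes that were altered and lower. Angptl4, which encodes a secreted inhibitor of lipoprotein lipase, had log2 values of 6.44, 6.99, 6.56 and 6.43 in the controls and of 6.09, 5.69, 5.30 and 6.17 in the mutants. Every mutant lay below every control, the log2 difference was -0.79 (SE 0.20; limma, adjusted p = 0.11), and it was altered in all 8 fits that left out 1 library. Col1a2, the gene of a type I collagen chain that odontoblasts make in bulk, had log2 values of 14.47, 13.83, 14.47 and 15.09 in the controls and of 12.93, 13.41, 13.68 and 12.98 in the mutants. Its log2 difference was -1.22 (SE 0.43; limma, adjusted p = 0.316), and again every mutant lay below every control. Beside it, the odontoblast markers Dspp, Dmp1, Nes and Phex summed to 6819 to 18828 CPM in the controls and to 4909 to 11299 CPM in the mutants (5471 to 11299 CPM without library 56), with 1 of 4 altered, lower, and none at 0, and their part in the Col1a2 difference was not tested. Col1a1, the gene of the partner chain, was not altered, with a log2 difference of -0.86 (SE 0.60; limma, adjusted p = 0.859) and overlapping genotypes, and was named after its values were seen. Acta2, the smooth muscle actin gene, had a log2 difference of -0.54 over all libraries and of -1.25 without library 56, where its value was 6.01 against 2.75 to 3.54 in the other mutants, and it was altered in that fit alone of the 8. Acta2 was named after its values were seen. The other four of the 24 were not analysed here.

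**Figure D5:**
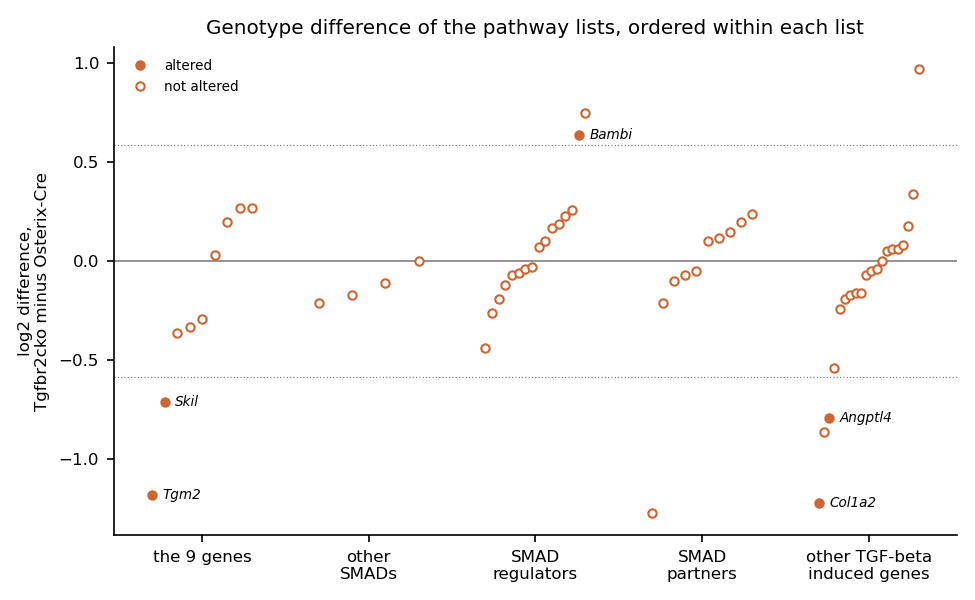
Each point is the log2 difference of 1 gene, Tgfbr2cko minus Osterix-Cre, ordered within its list; filled and named points are altered, and dotted lines mark a 1.5-fold change. Of the 50 further pathway genes, Bambi (0.64) lies above and Angptl4 (-0.79) and Col1a2 (-1.22) below the lines as altered genes, and most of the rest lie near 0.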

How the data were processed

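RNA-Seq libraries were prepared from preamplified pulp RNA of 4 Osterix-Cre and 4 Tgfbr2cko samples. The authors trimmed with fastp 0.21.0, aligned with HISAT2 2.1.0 and counted with featureCounts of Subread 2.0.1, per the submitters' processing notes, which name GRCm38.p5; they kept reliably quantifiable genes and deposited voom log2 CPM values, in which 0.5 is added to each count before scaling to the library total. All 97184 values turned back into whole reads (largest distance 1.42e-05), so 1 read is 0.0739 to 0.115 CPM; intervals cover these libraries, and reads without molecular identifiers are not independent molecules.

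Identifiers were matched to GENCODE M21 on GRCm38, which located 12144 genes. All 8 libraries entered 1 two-sided limma fit with an intensity trend (limma 3.58.1, R 4.3.3), p was adjusted over 12148 genes by the Benjamini-Hochberg method, and all 9 genes had a mean log2 value of at least 3. The fit was tested on simulated data. The genes and lists were chosen with earlier results of these data known. Named are the 9 genes, Tgfbr2, altered genes of each list or otherwise the smallest p, the 2 nearest genes in pattern, and markers; others are said to have been named after their values were seen, as was Pmepa1. Alternatives were no trend, library weights, voom weights on the recovered reads, quantile normalization, median centring, 2 reads added, a mean log2 minimum of 3, averaged title numbers, the enamel matrix level as a covariate, each library left out, an adjusted p under 0.05 and a 2-fold limit. Totals without the enamel matrix genes, and the alternatives for the correlations, were added after the data were seen. Marker lists of skeletal muscle and Schwann cells are not reported here. Promoter windows are those of RefSeq (GRCm38.p6).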

Additional observations from a re-analysis of the deposited data

How the results depend on the processing

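Over 18 refits, Tgm2 was altered in all 18 and Skil in 16. Smad3 changed sign without library 51, 54 or 55 and Smad7 without library 53, and the other seven kept their direction in all 18. Of the 9 genes, 1 was altered at an adjusted p under 0.05 and 1 at a 2-fold limit. Leaving out 1 library gave 1 to 3 altered genes, with 1 without library 54, where Skil was lost, and 3 without library 56, where Ccn2 was added. Of the 50 listed pathway genes, 5 were altered with averaged title numbers, 0 at an adjusted p under 0.05 (4 at an unadjusted p under 0.05), 1 at 2-fold, and 3 to 5 with 1 library left out, the 5 being without library 53. With no trend, library weights, voom weights or the enamel matrix covariate 4 were altered, and 2 with quantile normalization. Of the 12148 genes, 115 passed the adjusted threshold (258 with library weights, and 65 to 165 with 1 library left out) and 256 passed 2-fold. The share of altered genes that were lower was 63.2%, 53% without library 56 and 50.7% with totals that leave out the enamel matrix genes, a scaling that moved the median log2 difference of all genes from -0.01 to 0.07 and that of Tgm2 to -1.11 and of Skil to -0.64. The pairs with r above 0.7 numbered 2 to 5 with 1 library left out, 5 without library 56. The order by level per length was as given with 9 of 9 ranks in all alternatives except without library 53 or 54, where 7 ranks were kept. No paired analysis was possible because the genotypes share only 1 title number, which the labels do not explain. With 60 to 195 reads, Tgm2 has the least depth of the 9 genes.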
